A study of Homo sapiens with 18 samples.

Results

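MYC binding sites in 5 zinc-finger gene clusters of human chromosome 19 were examined in the peak lists of 9 MYC ChIP-seq libraries (chromatin immunoprecipitation followed by sequencing). A peak was a member when its summit lay within hg19 chromosome 19, 19800000 to 24400000 (cluster 1), 36500000 to 38500000 (cluster 2), 44200000 to 45000000 (cluster 3), 52300000 to 54000000 (cluster 4) or 56000000 to 59000000 (cluster 5). Merging the member peaks of all lists where they overlapped by at least 1 bp gave 190 regions. The rest of chromosome 19 gave 1815 regions, and chromosomes 1 to 22 and X together 43222. All cells were MCF10A, an immortalised breast epithelial line, with ectopic MYC (pBABE-hygro-MYC) and mutant PI3K (pMN-IRES-GFP-PI3KH1047R), the controls included. They were given doxycycline at 2 µg/mL for 72 h to induce a hairpin from pLKO-tetON-puro. The hairpins were a scramble control (shSCR, 3 libraries) and 2 hairpins against the histone methyltransferase G9a (shG9a_1 and shG9a_4, 3 libraries each). MYC was immunoprecipitated with the antibody N262. The labels do not say whether the transduced lines were clones or pools, and G9a itself was not measured in these files.

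Tandem arrays of zinc-finger genes fill much of chromosome 19. Most of their products carry a KRAB domain, which recruits TRIM28 and the H3K9 methyltransferase SETDB1 to silence transposable elements, and the 3′ exons of many of the genes are themselves covered by H3K9 methylation. G9a adds mono- and dimethyl groups to H3K9. MYC, paired with MAX, binds E-boxes (CACGTG and variants), mostly at active promoters. In the RefSeq table for GRCh38.p14, 266 of 1451 protein-coding genes of chromosome 19 (18.3%) had a zinc-finger symbol, and the longest unbroken run of them was 27 genes. In RefSeq promoters of GRCh38, 10 of 229 zinc-finger genes of chromosome 19 (4.37%) held CACGTG, which reads the same on both strands. It was in 84 of 956 promoters of other protein-coding genes of the chromosome (8.79%) and in 2030 of 27305 promoters in all (7.43%). The peaks are in hg19, so they were not assigned to these genes, and no sequence is shown.

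Peak lists held 20118 to 34738 peaks in shSCR and 11168 to 17454 in 5 of the shG9a libraries. The remaining one, shG9a_1 replicate 1, listed 113 peaks, 7 of them on chromosome 19 and 1 in a cluster. Group tests of peak numbers and shares against shSCR are given with and without it. The other 5 are called the full-length shG9a lists.

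MYC sites were sparse in the clusters. There were 15.7 regions per Mb over the 5 clusters together and 38.8 per Mb over the rest of the chromosome between its first and last peak, a span that includes the centromere. The peak density was lower in the clusters than in the rest in all 9 libraries. It was 9.92, 13.3 and 8.84 peaks per Mb in shSCR replicates 1, 2 and 3, against 26.8, 31.7 and 21.0 in the rest. In the full-length shG9a lists it ranged from 3.22 to 6.94 per Mb, against 11.1 to 17.97 in the rest.

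The sparseness was uneven among the clusters. Cluster 1, home of the primate-expanded ZNF91 family, was the longest at 4.6 Mb and held 10 regions, 2.17 per Mb. No list had a peak between 21580129 and 24216301, a stretch of 2.64 Mb. Clusters 2, 3, 4 and 5 held 50, 26, 34 and 70 regions, or 25.0, 32.5, 20.0 and 23.3 per Mb. Even the densest, cluster 3, was below the 38.8 per Mb of the rest of the chromosome. In cluster 5, which contains the imprinted gene PEG3, the longest stretch without a region ran from 57149639 to 57683598, 0.534 Mb. The summits nearest to a border lay 195 bp inside the start of cluster 2 and 921 bp outside the start of cluster 5.

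All 3 shSCR libraries called 73 of the 190 regions (38.4%, Wilson 95% interval 31.8 to 45.5%), beside 32.9% of all regions and 38.1% in the rest of chromosome 19. A single library called 80 of the 190 (42.1%, 35.3 to 49.2%), beside 38.8% of all regions and 35.0% in the rest of the chromosome. Regions called in 2 shSCR libraries were 27 of 190 (14.2%, 9.95 to 19.9%), beside 22% of all regions and 20.1% in the rest of the chromosome. Reproducible regions were unevenly spread: all 3 shSCR libraries called 1 of 10 in cluster 1, 25 of 50 in cluster 2, 8 of 26 in cluster 3, 8 of 34 in cluster 4 and 31 of 70 in cluster 5. In cluster 1 a single library called 9 of the 10.

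Fewer cluster peaks were listed with G9a hairpins. The shSCR libraries listed 120, 161 and 107. The shG9a_1 libraries listed 1, 46 and 60, and the shG9a_4 libraries 39, 84 and 59. Every shG9a list was below every shSCR list. Means were 129 ± 28.2 for scramble (SD, n = 3) and 48.2 ± 27.8 for the G9a hairpins (SD, n = 6), so that the number fell by 62.8% (two-sided exact permutation p = 0.0238, the smallest this design allows). With the full-length shG9a lists alone the mean was 57.6 ± 17.2 (SD, n = 5), and the number fell by 55.5% (exact permutation p = 0.0357, again the smallest possible). For hairpin shG9a_1 it fell by 72.4% and for shG9a_4 by 53.1%, each with an exact permutation p of 0.1, the smallest that 3 against 3 libraries can give. Without shG9a_1 replicate 1 the fall for shG9a_1 was 59.0% (exact permutation p = 0.2, the smallest possible).

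Peak numbers on the rest of the chromosome fell as well, from 1239 ± 251 (SD, n = 3) to 539 ± 283 with the G9a hairpins (SD, n = 6), or by 56.5% (exact permutation p = 0.0238). On the full-length shG9a lists alone the mean was 646 ± 121 (SD, n = 5), a change of -47.8% (exact permutation p = 0.0357, the smallest possible). The change in the clusters on the same lists was -55.5%. Whether the clusters lost more than the rest was measured as the share of chromosome 19 peaks that lay in them. Scramble libraries had shares of 8.74%, 9.80% and 9.83%. Those of shG9a_1 were 14.3%, 7.40% and 8.53%, the first being 1 peak of 7, and those of shG9a_4 were 6.98%, 9.09% and 8.31%. Means were 9.46 ± 0.622% for scramble (SD, n = 3) and 9.10 ± 2.66% for the hairpins (SD, n = 6), a difference within the spread of the libraries (exact permutation p = 0.714). With the full-length lists alone the hairpin mean was 8.06 ± 0.861% (SD, n = 5), lower than scramble (exact permutation p = 0.0714, with 0.0357 the smallest possible). In that set 4 of 5 hairpin libraries lay below the lowest scramble library, and shG9a_4 replicate 2 lay within the scramble range.

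**Figure D1:**
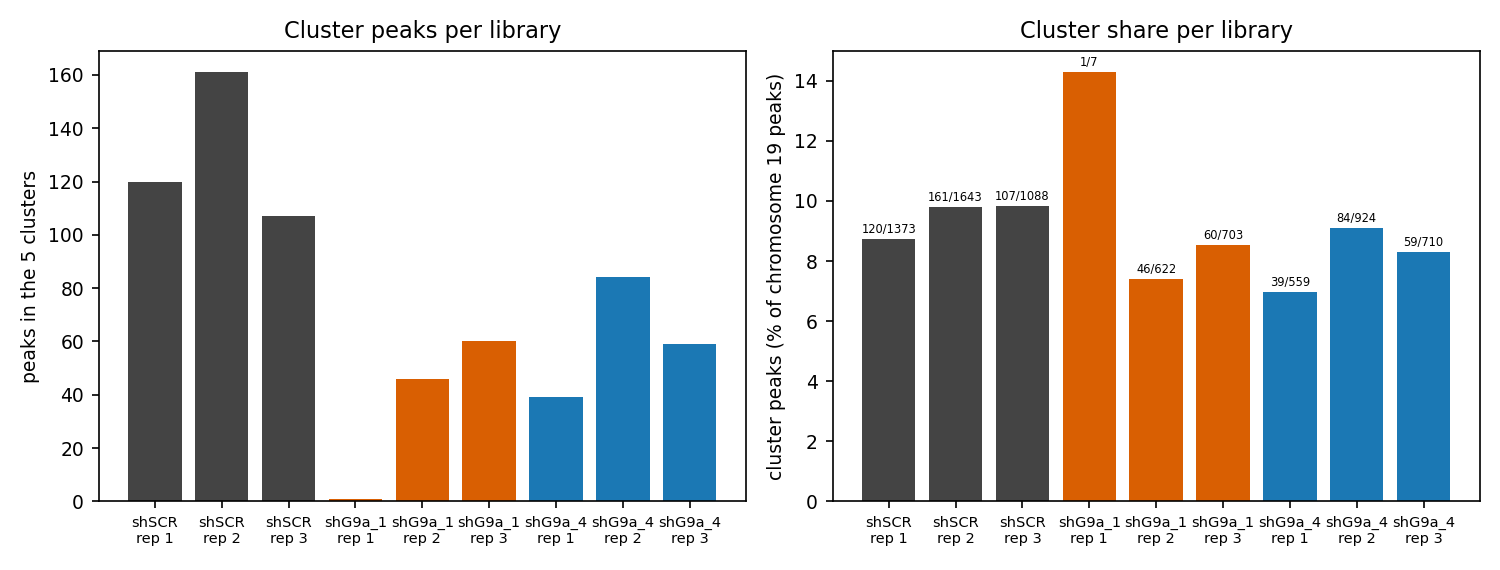
Left, number of peaks with a summit in the 5 clusters, 1 bar per library. Right, those peaks as a percentage of the library's chromosome 19 peaks, with both counts above each bar. Numbers are 107 to 161 in shSCR and 1 to 84 in shG9a, while shares are 8.74 to 9.83% in shSCR and, leaving out the library with 7 peaks on the chromosome, 6.98 to 9.09% in shG9a.

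List length differed between the groups, and shares were therefore also taken from the top 11168 peaks of each of 8 lists, without shG9a_1 replicate 1. The cluster share was then 6.47%, 8.92% and 8.68% for scramble, 7.48% and 8.90% for shG9a_1, and 6.98%, 8.62% and 7.54% for shG9a_4. All hairpin libraries lay within the scramble range, with means of 8.03 ± 1.35% (SD, n = 3) and 7.90 ± 0.818% (SD, n = 5; exact permutation p = 0.857). At equal list length the cluster share thus differed by less than the spread between libraries.

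Taken one at a time, no cluster passed the test of its share after adjustment over the 5 clusters. Cluster 2 held 2.84 ± 0.162% of chromosome 19 peaks in scramble (SD, n = 3) and 1.93 ± 1.00% with the hairpins (SD, n = 6; exact permutation p = 0.0476, Benjamini-Hochberg adjusted p = 0.119). Cluster 4 held 1.35 ± 0.473% (SD, n = 3) and 0.586 ± 0.383% (SD, n = 6; exact permutation p = 0.0476, adjusted p = 0.119). With the full-length lists alone the hairpin means were 2.32 ± 0.373% and 0.703 ± 0.283% (SD, n = 5), each with an adjusted p of 0.179 by the exact permutation test. Adjusted p-values of clusters 1, 3 and 5 by this test were 0.238, 0.476 and 0.643, and 0.357, 0.714 and 0.964 with the full-length lists alone. Cluster 5 was alone in a higher mean with the hairpins, 5.62 ± 4.27% (SD, n = 6) against 3.91 ± 0.281% (SD, n = 3), and with the full-length lists it was 3.89 ± 0.502% (SD, n = 5). Cluster 1 rested on 2, 6 and 2 peaks in scramble, 0 in each shG9a_1 library and 1, 3 and 1 in shG9a_4.

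Many of the cluster sites were weak. Strength was taken as the percentile of a region's best peak, ranked by the authors' q-value within its list and averaged over the 3 shSCR lists. The median strength of the 73 regions called in all 3 shSCR libraries was 56.5 (interquartile range 44.0 to 79.3), against 69.5 (50.9 to 85.5) for 692 such regions in the rest of chromosome 19 and 66.9 for all 14209. Median shSCR fold enrichment, the authors' value at the summit, was 7.61 in the clusters and 9.31 in the rest. Set against 5 equal classes of strength in the rest of the chromosome, 24 of the 73 fell in the weakest class, 19 in the next, then 9 and 8, and 13 in the strongest. The cluster sites were thus concentrated at the weak end, while a smaller group fell in the strongest class. The highest mean shSCR fold was 34.4 in the clusters and 54.5 in the rest. Cluster 4 had the lowest median strength among clusters 2 to 5, 48.3, and its 8 regions reached a mean fold of at most 8.83, whereas clusters 2 and 5 reached 34.4 and 30.0.

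Peak shape differed little from the rest of the chromosome. The median width of shSCR peaks was 357 bp in the clusters and 369 bp in the rest, and the median spread of summits among the 3 shSCR libraries was 63 bp and 70 bp. In the shG9a libraries the summit lay a median of 39.3 bp from the mean shSCR summit in the clusters and 36.3 bp in the rest. Neighbours were farther away: the median gap to the nearest region called in all 3 shSCR libraries was 20.2 kb in the clusters and 9.10 kb in the rest. In the clusters 24 of 73 (32.9%) had such a neighbour within 10 kb, against 53.3% in the rest of the chromosome. These are descriptions, with no test.

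Of the regions called in all 3 shSCR libraries, those absent from every shG9a list were counted as lost, those in at least 5 shG9a lists as kept, and the others as partial. In the clusters 10 of 73 were lost (13.7%, Wilson 95% interval 7.61 to 23.4%), beside 9.49% of all such regions and 6.94% (5.27 to 9.08%) in the rest of chromosome 19. There were 20 kept regions (27.4%, 18.5 to 38.6%), beside 36.9% of all and 40.6% (37.0 to 44.3%) in the rest of the chromosome. The other 43 were partial (58.9%), beside 53.6% of all. The intervals cover counting error only. No cluster region was gained, which means absent from shSCR and called in at least 2 libraries of each hairpin, beside 0.00925% of all regions. This rule was hard to meet. With 1 cluster peak in shG9a_1 replicate 1, it in effect needed both other shG9a_1 lists, and 4 of all 43222 regions passed it. The absence of gained cluster regions therefore says little. Of the 190 regions 5 were called in no shSCR library, each in 1 shG9a library.

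By count, most losses lay in cluster 2, where 6 of 25 regions were lost (24%, Wilson 95% interval 11.5 to 43.4%) and 6 kept. The lost share was 9.49% over all regions. In cluster 5, 2 of 31 were lost (6.45%) and 10 kept. Cluster 3 had no lost region and 4 kept ones among 8. Cluster 4 had 2 lost regions among 8 (25%, Wilson 95% interval 7.15 to 59.1%), a share like that of cluster 2, and no kept one. The single reproducible region of cluster 1 was partial. Both counts moved with list length and with single libraries. With the top 11168 peaks of each of 8 lists, 0 of 26 cluster regions were lost (Wilson 95% interval up to 12.9%). This was beside 1.23% of all regions and 0.299% in the rest of chromosome 19. In at least 4 of 5 shG9a lists 19 were kept (73.1%, 53.9 to 86.3%), beside 80.1% of all and 82.1% in the rest of the chromosome. Without shSCR replicate 1, 16 of 82 were lost (19.5%), beside 14% of all regions and 10.8% in the rest of chromosome 19. The share rose in all 3 sets. Without shG9a_1 replicate 1, where 4 of 5 libraries sufficed, 31 of 73 were kept (42.5%), beside 52.2% of all and 54.5% in the rest. With peaks of a −log10 q of at least 5 only, 2 of 45 cluster regions were lost (4.44%, Wilson 95% interval 1.23 to 14.8%), beside 9.82% of all and 6.72% in the rest of chromosome 19, so that the clusters then had the lower share. With these peaks 13 of 45 were kept (28.9%), beside 33.9% of all and 36.1% in the rest of chromosome 19.

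Since calls rose with strength, they were also compared at like strength. For each shG9a library, the number of cluster regions expected was taken from the call rate of the rest of chromosome 19 in the same strength class. Replicates 2 and 3 of shG9a_1 called 37 and 42 of the 73, with 37.7 and 42.5 expected. The shG9a_4 libraries called 33, 56 and 44, with 36.3, 55.9 and 44.9 expected. The largest departure in these 5 libraries was thus -3.29 regions, in shG9a_4 replicate 1, and in shG9a_1 replicate 1 there was 1 region called with 0.468 expected. Before this allowance each of the 5 had called a smaller share of the cluster regions, 45.2 to 76.7%, than of the rest, 59.1 to 82.8%. In the same way 7.76 lost and 22.5 kept regions were expected at like strength, where 10 and 20 were found. The Wilson 95% interval of the cluster call rate held the expected rate in all 6 libraries. The same 73 regions enter each of them, so these are not 6 separate checks, and no test was made. With 73 regions these intervals were wide, for example 34.3 to 56.6% around 45.2% in shG9a_4 replicate 1, and departures within them were not detectable.

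Most of the strongest cluster sites stayed called, as did strong sites elsewhere on the chromosome. In the strongest class 12 of 13 cluster regions were kept, beside 139 of 139 in the rest of chromosome 19. Heights are given as relative height, the fragment pileup at the summit divided by the median pileup, in the same library, of the 281 regions of the rest of chromosome 19 that were called in all 8 libraries other than shG9a_1 replicate 1. The first by strength lay in cluster 2 at chromosome 19, 36605630 to 36606566, with a shSCR fold of 34.4 ± 7.74 (SD, n = 3). Its relative height was 2.38, 3.00 and 2.90 for scramble, 2.85 and 2.11 for shG9a_1 replicates 2 and 3, and 2.72, 3.25 and 2.43 for shG9a_4. The groups overlapped (log2 difference of shG9a from shSCR -0.013, SE 0.15, limma adjusted p = 0.990).

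The second lay in cluster 5 at 57791001 to 57792375, with a shSCR fold of 25.3 ± 2.77 (SD, n = 3). Its relative height was 2.08, 2.90 and 2.90 for scramble, 2.85 and 2.72 for shG9a_1, and 3.83, 4.45 and 3.65 for shG9a_4. The shG9a_4 libraries all lay above every other library, and the shG9a_1 libraries lay within the scramble range. Relative to all regions, its height rose by 0.63 on the log2 scale with shG9a_4 (SE 0.16, limma adjusted p = 0.0384), and the log2 difference was 0.16 with shG9a_1 (SE 0.17, limma adjusted p = 0.833). It was the single cluster region of 20 past the threshold with shG9a_4, beside 0.343% of all 5245 regions tested that were higher and 0.0381% that were lower. The call was lost without shSCR replicate 1 or 2, without any 1 of the shG9a_4 libraries, and when heights were centred on the rest of chromosome 19 or not centred. The limma adjusted p ranged from 0.0236 to 0.567 over 9 alternatives. The 2 hairpins did not differ past the threshold there (log2 difference 0.47, SE 0.17, limma adjusted p = 0.650). The authors' fold, which divides the pileup by the local background, overlapped between the groups at this region, at 24.8, 22.8 and 28.3 for scramble, 25.4 and 17.8 for shG9a_1, and 21.7, 30.1 and 21.3 for shG9a_4.

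Of the other 8 among the 10 strongest, 7 were kept. In cluster 5 they were at 58897635 to 58898888, 56166248 to 56167316, 56631603 to 56633205, 58873384 to 58874454 and 58330888 to 58331433. In cluster 2 they were at 36705842 to 36706393 and 36822258 to 36822774. Their mean relative heights were 1.24 to 2.24 over the 3 scramble libraries and 1.32 to 2.16 over the 5 full-length hairpin lists. The region at 56166248 was the single cluster region that shG9a_1 replicate 1 called, from a pileup of 9 fragments. Its relative height was 2.02 ± 0.503 for scramble (SD, n = 3) and 1.95 ± 0.360 for the full-length hairpin lists (SD, n = 5).

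The remaining one of the 10 was partial. It lay in cluster 2 at 37063927 to 37064326 and was the strongest cluster region that was not kept, with a shSCR fold of 21.2 ± 4.61 (SD, n = 3). Its relative height was 1.25, 1.68 and 1.3 for scramble, 1.23 and 1.06 for shG9a_1, and 0.950 and 1.26 for shG9a_4 replicates 2 and 3. Replicate 1 of shG9a_4, the full-length list with the fewest cluster peaks, did not call it.

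The strongest sites of the other clusters were lower. In cluster 3 the region at 44283314 to 44283795 had a relative height of 0.958, 1.03 and 1.00 for scramble, 0.846 and 0.556 for shG9a_1, and 1.00, 0.850 and 0.609 for shG9a_4. The shG9a relative heights reached lower but overlapped those of shSCR (log2 difference -0.36, SE 0.22, limma adjusted p = 0.6246). The authors' fold there did not overlap between shSCR and shG9a. It was 14.6, 17.0 and 11.6 for scramble, 7.36 and 3.91 for shG9a_1, and 5.90, 8.20 and 6.01 for shG9a_4. Unlike relative height, the fold is not scaled to other regions of the same library, and it was not tested. In cluster 4 the region at 52772527 to 52773014 had relative heights of 0.583, 0.581 and 0.650 for scramble and 0.692 and 0.667 for shG9a_1. They were 0.600 and 0.435 for shG9a_4 replicates 2 and 3, and the region was not called in shG9a_4 replicate 1. Its fold was 8.22, 9.51 and 8.755 for scramble. The fold was lower in the shG9a lists that called it, at 7.12 and 6.55 for shG9a_1 and 5.92 and 3.39 for shG9a_4. In cluster 1 the region at 19887223 to 19887776 had relative heights of 0.792, 0.581 and 0.500 for scramble and 0.722, 0.650 and 0.652 for shG9a_4. No shG9a_1 library called it. Its fold overlapped, at 11.5, 10.2 and 6.06 for scramble and 7.78, 5.40 and 6.41 for shG9a_4.

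Over the 20 kept regions together, the median log2 pileup less that of the 281 other regions was 0.14, 0.068 and 0.10 for scramble, 0.39 and 0.15 for shG9a_1, and 0.039, 0.20 and 0.11 for shG9a_4. The kept cluster regions were slightly taller than the kept regions of the rest in all 8 libraries. The mean was 0.105 ± 0.0374 for scramble (SD, n = 3) and 0.177 ± 0.131 for the hairpins (SD, n = 5), a difference within the spread (exact permutation p = 0.429). Over these same regions the difference was above 0 with any 1 library left out. Its sign depended on the regions: when they were chosen again as those called in all remaining libraries, it was -0.108 without shG9a_1 replicate 2 (23 cluster regions) and -0.0119 without shG9a_4 replicate 1 (26 cluster regions).

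Region by region, 0 of the 20 passed an adjusted p of 0.05 in limma with both hairpins together, beside 0.0381% of all 5245 regions lower and 0.439% higher, and 2 (10%) had an unadjusted p under 0.05, beside 9.67% of all. These were the regions at 57791001 (log2 difference 0.45, SE 0.14, limma adjusted p = 0.151) and at 44243789 to 44244370 in cluster 3 (log2 difference 0.58, SE 0.21, limma adjusted p = 0.249). The latter, named after its values were seen, had relative heights of 0.792, 0.613 and 0.800 for scramble, 1.15 and 1.17 for shG9a_1, and 0.889, 1.25 and 0.913 for shG9a_4, with no overlap between the groups. With shG9a_1 alone 0 of the 20 passed in limma, beside 0.0191% of all regions lower and 0.0763% higher, and 1 had an unadjusted p under 0.05, beside 8.39% of all. With shG9a_4 this was so of 4 of 20, 2 lower and 2 higher, beside 9.11% of all. These values are relative to the median of all regions. Without centring, the median log2 difference of all 5245 regions, shG9a less shSCR, was -0.49. Then 2 of the 20 passed as lower with both hairpins, at 44283314 and, named after its values were seen, at 36979796 to 36980525 in cluster 2, beside 8.77% of all regions and 9.25% in the rest of chromosome 19. With shG9a_1, 4 of 20 (20%) passed as lower without centring, beside 40.5% of all.

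The 10 lost regions were low in shSCR already. In cluster 2 they lay at 36631640 to 36632245, 37157680 to 37157927, 37568962 to 37569723, 38397709 to 38398222, 36505377 to 36505599 and 38210120 to 38210423. In cluster 4 they lay at 53868840 to 53869144 and 53465755 to 53466265, and in cluster 5 at 58280905 to 58281257 and 57874564 to 57874955. Their strength ran from 20.5 to 54.2, and 9 of them fell in the weakest class. The strongest, at 36631640, had a relative height of 0.375, 0.613 and 0.500 in scramble, from pileups of 9, 19 and 10 fragments, and a fold of 8.52 ± 3.91 (SD, n = 3). The weakest, at 57874564, had a fold of 5.23 ± 1.29 (SD, n = 3). Sites just short of the peak caller's cutoff do not appear in a list, and whether these 10 were still occupied at a lower height was not detectable. The median fold of the lost cluster regions was 6.41, against 7.23 for partial and 14.4 for kept ones. In the rest of the chromosome these medians were 5.99, 7.86 and 14.2.

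The hairpins were also compared site by site, both against the same shSCR libraries. Replicate 1 of shG9a_1 called 1 of the 73 regions. The shG9a_1 counts thus rest on 2 full-length lists and those of shG9a_4 on 3, so the counts below are not on an equal footing. With shG9a_1, 22 of the 73 regions were called in no library (30.1%), beside 25.3% of all and 21.7% in the rest of chromosome 19. In at least 2 shG9a_1 libraries 28 were called (38.4%), beside 47.5% of all and 50.9% in the rest of the chromosome. With shG9a_4, 15 were called in none (20.5%), beside 13.5% of all and 10.1% in the rest of the chromosome. In at least 2 shG9a_4 libraries 48 were called (65.8%), beside 68.8% of all and 71.8% in the rest of the chromosome. These shares take no account of strength. Of the 73, 12 were called by shG9a_4 and not by shG9a_1 (16.4%), beside 15.9% of all and 14.7% in the rest of the chromosome. By shG9a_1 and not by shG9a_4, 5 were called (6.85%, Wilson 95% interval 2.96 to 15.1%), beside 4.04% of all and 3.18% in the rest of the chromosome. The strongest of the 12 lay in cluster 2 at 37019182 to 37019835, with a strength of 73.8 and calls in 2 shG9a_4 libraries, and the region at 56152194 to 56152765 in cluster 5 was called in all 3. Of the 5, the region at 58070871 to 58071451 in cluster 5 was called in 2 shG9a_1 libraries and had a strength of 64.9. These 3 were named after their values were seen. The number of cluster peaks did not differ past the spread between the hairpins, at 35.7 ± 30.8 for shG9a_1 and 60.7 ± 22.5 for shG9a_4 (SD, n = 3 each; exact permutation p = 0.5). Without shG9a_1 replicate 1 the former was 53.0 ± 9.90 (SD, n = 2; exact permutation p = 1).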

How the data were processed

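The 9 MYC libraries have 1 peak list each, and the 9 DNA inputs were not used here. Tools named by the submitters' processing notes, without roles, are MACS2 2.1.0, STAR 2.5.2a, Picard 2.7.1 and SAMtools 1.3. The build, hg19, comes from the same notes, with caller settings not given in the sources used here. The deposited lists give, per library, the authors' score, fold (a ratio to local background), −log10 p-value, −log10 q-value and summit offset of each peak. Chromosomes 1 to 22 and X were used, leaving out 192 of 151062 peaks. Whole-number pileups were recovered from fold and p in 100% of peaks, within 0.001 on the −log10 p scale. Read depth is not listed, and intervals cover counting error only.

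Group values were tested over libraries by two-sided exact permutation (Python 3.11.15, doubling the smaller tail). Heights were tested with limma 3.58.1 in R 4.3.3 on log2 pileup at the 5245 regions called in all 8 libraries other than shG9a_1 replicate 1, centred per library on their median, with Benjamini-Hochberg adjustment over all 5245. The limma test was added after the data were seen. Scripts were tested on simulated data. The series design calls the replicates biological. Zinc-finger symbols were PEG3 and those starting with ZNF, ZFP, ZSCAN, ZKSCAN, ZIM or ZIK and a digit, and promoters were 300-base windows. The clusters, tests and naming rule were chosen with earlier results of these data known. The rule named the 10 strongest regions, lost and gained regions, the strongest of each cluster and those called in shG9a_1 replicate 1. E-boxes under the peaks were not searched.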

Additional observations from a re-analysis of the deposited data

Results flagged for a closer look

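Among the 6 shG9a libraries, shG9a_1 replicate 1 stood apart in 4 cluster measures. Its cluster share of chromosome 19 peaks was 14.3%, its cluster share of all peaks 0.885%, its cluster 2 share of chromosome 19 peaks 0% and its cluster 5 share 14.3%. All rest on the 1 cluster peak among the 7 chromosome 19 peaks and 113 peaks of that library. Chance flags about 1 in 20 groups, and the measures share these peaks.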

How the results depend on the processing

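The fall in cluster peaks with both hairpins (-81.2 peaks) kept its direction in every setting run. Under a replicate block, with numbers kept together, -81.2 had an exact permutation p of 0.0741, the smallest the block allows. Leaving out 1 library at a time gave -92.3 to -65.3 (exact permutation p = 0.0714, the smallest possible, without any 1 shSCR library), -105.8 to -76.3 for shG9a_1 and -80.3 to -52.8 for shG9a_4. The numbers share no stated source: correlations of same-numbered deviations ran from -0.0996 to 0.170, and 5 of 9 libraries correlated best with their own number. The block changed no other call. The cluster share with both hairpins (-0.359 points) changed sign with a fold of at least 5 (1.76), clusters shortened by 100 kb (0.0660) and as a share of all peaks (0.0395), and ran from -1.40 to 0.0655 with 1 library out. With shG9a_1 (0.614) it was -3.64 with a −log10 q of at least 5, -1.16 by covered length and -1.49 to 1.95 with 1 library out. The height offset (0.0724 with both, 0.164 with shG9a_1, 0.0115 with shG9a_4) was -0.0813, -0.0116 and -0.128 with a −log10 q of at least 5. Over regions called in 3 shSCR and at least 3 shG9a libraries it was -0.0529, -8.2e-05 and -0.0882. With 1 library out and the same regions it ran from 0.0199 to 0.107, 0.0453 to 0.282 and -0.0305 to 0.0502. With regions chosen again for the remaining libraries (20 to 26 in the clusters), added after seeing the data, it was -0.108 and -0.184 without shG9a_1 replicate 2 (both hairpins, shG9a_1), -0.0119 and -0.0725 without shG9a_4 replicate 1 (both hairpins, shG9a_4) and -0.00696 without shSCR replicate 2 (shG9a_4). None of these shares or offsets passed 0.05 in any setting. The cluster 5 share ran from -0.0177 to 2.23 points with 1 library out. A −log10 q of at least 5 left 45 regions called in all shSCR libraries, 2 lost (4.44%, beside 9.82% of all regions) and 13 kept, and equal peak numbers left 26 and 0 lost. With 1 library out there were 10 to 16 lost and 20 to 31 kept. Without centring limma called 2 cluster heights with both hairpins, 4 with shG9a_1 and 0 with shG9a_4. Centred on the rest of chromosome 19 it called 0 with shG9a_4, and 0 to 1 with 1 library out. Where a hairpin was left with 1 library in limma, that library was assumed to vary like the other groups. Causes were not tested. The E-box alternatives were not run.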
